A study of Rattus norvegicus with 9 samples.

Results

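The adenosine and P2 purinergic receptors described here are 10 genes: the adenosine receptors Adora1, Adora2b, and Adora3, the ATP-gated channels P2rx4 and P2rx7, and the nucleotide receptors P2ry1, P2ry2, P2ry4, P2ry6, and P2ry14. They were taken by name from the gene names that the arrays give, and 11 of the 30367 probes (10 of 26276 gene names) belong to them. The matching by name used no measured values, but the members were chosen with earlier results of these data known. Counts of called members are therefore not those of an unselected set. All 11 probes passed the filter on dim probes, and Adora1, the only member with 2 probes, is given by the brighter one.

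RNA from the infarcted hemisphere of male Sprague Dawley rats, taken at day 14, was hybridized to 9 Agilent arrays (SurePrint G3 Rat, one color), 3 in each of 3 groups. Sham rats underwent the surgery without a filament and received the solvent of the drug by tail vein. I/R rats had the middle cerebral artery occluded by a nylon suture for 2 h, followed by reperfusion. DHI rats had the same occlusion and reperfusion and then daily tail vein injections of Danhong injection (DHI), an injectable herbal preparation, up to day 14. The sources give the DHI dose of the array rats in differing units, so it is not printed here, and they do not say whether the I/R rats of the arrays received solvent.

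A level is the log2 of the background-corrected spot intensity minus the 75th percentile of its array, so a level of 0 lies at that percentile. The 75th percentile was 2569.7 to 2745.3 intensity units in Sham, 2628.7 to 3464.4 in I/R, and 1816.3 to 2785.1 in DHI. Levels of different probes are not compared gene by gene. The marker sums given below add linear levels of different probes, so the brightest probes weigh most in them. A gene was called changed at an unadjusted p under 0.05 and a fold change (FC) over 1.5, the thresholds of the study, in limma's model over all 9 arrays, and the Benjamini-Hochberg adjusted p over the 23759 tested probes is given beside it. The Sham and I/R arrays share 1 slide and the DHI arrays lie on another, so the slide and DHI cannot be told apart. The study calls the arrays of a group biological replicates, and 3 arrays per group limit the precision of every value.

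Purinergic signaling starts when cells release ATP and other nucleotides. Nucleotides act on P2X receptors, which are cation channels, and on P2Y receptors, which are coupled to G proteins. Enzymes on the cell surface degrade ATP stepwise to adenosine, which acts on the adenosine receptors. In brain, the A1 adenosine receptor is known for dampening transmitter release by neurons, while microglia carry several P2 receptors and use them to sense damage and to take up debris.

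The members lie on 6 chromosomes in rn4, the build of the probe positions in the files. P2rx4 and P2rx7 are neighbors, as are P2ry6 and P2ry2. The probes of P2rx4 (chr12:34945104-34945163) and P2rx7 (chr12:35074875-35074934) are 129.7 kb apart, and those of P2ry6 (chr1:158381909-158381968) and P2ry2 (chr1:158440467-158440526) are 58.5 kb apart. The P2ry14 probe (chr2:148502701-148502760) lies near those of P2ry13 (148600672 to 148600731) and P2ry12 (148611053 to 148611112), which are other P2Y receptors. The other probes lie at chr13:47159190-47159249 (Adora1), chr10:48437508-48437567 (Adora2b), chr2:201161366-201161425 (Adora3), chr2:150465769-150465828 (P2ry1), and chrX:88589541-88589600 (P2ry4). The files do not say which exon or untranslated part a probe covers.

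The sequence upstream of the transcription start, in the RefSeq table of the GRCr8 build, was found for 9 of the 10 members. P2ry6 was the exception. Windows of 250 bases are shown for 4 members, 5′ to 3′ on the strand of the gene and ending at the base before the start, because they belong to receptors that moved in different ways between the groups: Adora1 was lower in I/R than in Sham, Adora3 and P2rx4 were higher, and P2ry4 had higher levels in DHI. Capitals mark the motif matches named after them.
Adora1 (chr13:48246832-48247081, minus strand): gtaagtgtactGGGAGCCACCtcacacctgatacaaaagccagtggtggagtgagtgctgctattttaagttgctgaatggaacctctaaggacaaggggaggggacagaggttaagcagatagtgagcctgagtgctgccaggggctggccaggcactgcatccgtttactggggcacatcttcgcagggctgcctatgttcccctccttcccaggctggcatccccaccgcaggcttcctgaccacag
Adora3 (chr2:196076792-196077041, plus strand): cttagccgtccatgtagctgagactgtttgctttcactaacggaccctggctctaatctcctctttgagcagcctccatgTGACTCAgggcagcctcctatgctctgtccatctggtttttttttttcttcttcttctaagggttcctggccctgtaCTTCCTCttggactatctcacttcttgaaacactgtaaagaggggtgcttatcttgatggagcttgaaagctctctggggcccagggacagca
P2rx4 (chr12:39523090-39523339, minus strand): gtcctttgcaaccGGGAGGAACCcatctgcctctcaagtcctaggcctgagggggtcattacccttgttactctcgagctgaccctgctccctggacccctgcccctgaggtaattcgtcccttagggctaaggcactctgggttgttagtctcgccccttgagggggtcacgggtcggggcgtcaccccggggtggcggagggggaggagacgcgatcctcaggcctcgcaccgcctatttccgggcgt
P2ry4 (chrX:69728527-69728776, minus strand): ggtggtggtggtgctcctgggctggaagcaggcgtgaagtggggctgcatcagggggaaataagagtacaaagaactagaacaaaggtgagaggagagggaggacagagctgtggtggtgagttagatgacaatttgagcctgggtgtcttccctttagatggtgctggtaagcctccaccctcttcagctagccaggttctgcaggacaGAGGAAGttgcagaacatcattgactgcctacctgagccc

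Of 7 motifs searched on both strands of these windows, a loose NF-kB pattern of 10 letters matched in Adora1 at -239 and in P2rx4 at -237. Positions are counted from the start to the first base of the match. The pattern leaves the letters in its middle free, and whether these stretches are NF-kB sites was not tested. The PU.1 core (GAGGAAG) matched on the minus strand in Adora3 at -93, where it reads CTTCCTC, and on the plus strand in P2ry4 at -40. AP-1 (TGANTCA) matched in Adora3 at -170. These motifs are found in 16.4%, 10.2%, and 6.34% of all 33469 windows of this length, respectively. The GC box (GGGCGG, 30.5% of windows) matched 4 times in Adora2b, 2 times each in P2rx7 and P2ry1, and 3 times in P2ry2, and the hypoxia response element core (ACGTG, 16.6%) matched at overlapping positions on both strands of P2ry2. P2ry14 held no match to any of the motifs, and the cAMP response element (TGACGTCA, 1.59%) and the TATA box (TATAAA, 12.9%) matched in none of the 9 windows. The receptors that were higher in I/R thus share no single match, and the matches are descriptions of letters only.

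Whether I/R changed the receptors was asked first. Between I/R and Sham, 7 receptors rose (Adora2b, Adora3, P2rx4, P2rx7, P2ry2, P2ry6, and P2ry14, by 1.96- to 15.1-fold), 1 fell (Adora1, by 2.04-fold), and P2ry1 and P2ry4 were not called. Of all probes tested, 43.1% were called in this comparison, 20.9% higher and 22.3% lower, against 8 of the 10 receptors. All 8 also had an adjusted p under 0.05 in limma's test, as 31.4% of all probes did. P2rx7 passed the filter on dim probes only through the I/R arrays, the group where it is high, and P2ry4 only through the Sham and DHI arrays. The tests of both are therefore not independent of the filter. Of the other 8 receptors, which were well above background on all 9 arrays, 7 were called in I/R versus Sham (6 higher and 1 lower) and 5 between DHI and I/R (4 lower and Adora1 higher). Among all 21567 probes of that kind, 42.7% and 21.6% were called in these comparisons. By limma's adjusted p, 0 of the 8 were called between DHI and I/R. The median log2 FC of the 10 receptors in I/R versus Sham was 1.58, beside -0.10 over all tested probes. The arrays of the groups did not overlap for 9 of 10 receptors, and for 62.5% of all probes.

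**Figure D1:**
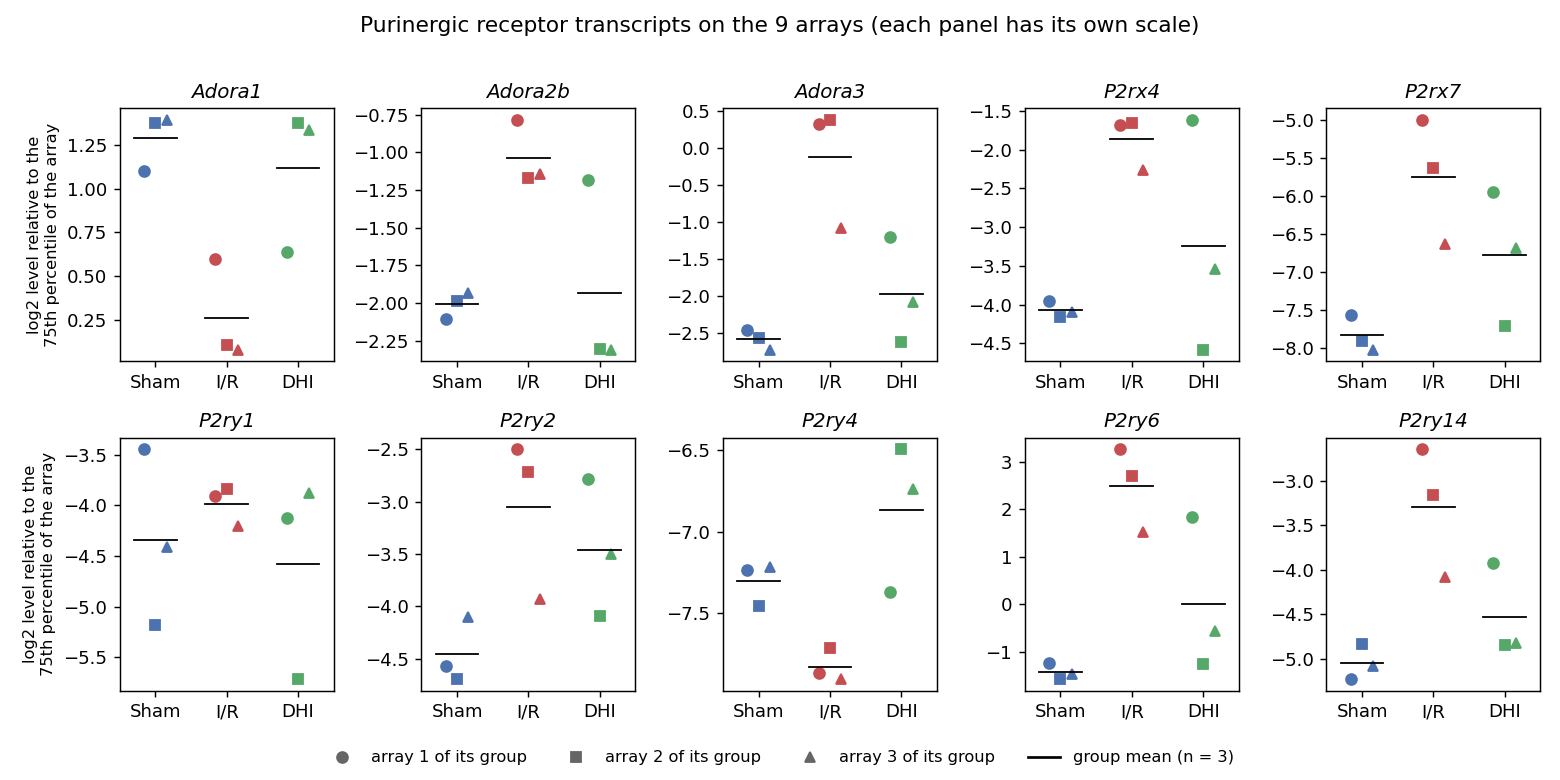
Levels of the 10 receptors on each array (y axis, log2 of the intensity over the 75th percentile, with a scale of its own in each panel) by group; the symbol gives the array number and the line the mean of 3 arrays. P2ry6 ran from -1.57 to -1.24 in Sham and from 1.52 to 3.26 in I/R, and the circle of DHI lies toward the I/R arrays in 8 of the panels.

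Whether DHI rats differed from I/R rats was asked second. Between DHI and I/R, 4 receptors were lower (Adora2b, Adora3, P2ry6, and P2ry14, by 1.87- to 5.62-fold) and 2 were higher. Adora1 was higher by 1.81-fold and P2ry4 by an estimated 1.95-fold, against I/R arrays that were not well above background for it. Of all probes, 21.9% were called, 11.4% higher and 10.5% lower. With the adjusted p, 0 of the 10 receptors and 0.00421% of all probes (1 probe) were called by limma, and the 6 receptors with an unadjusted p under 0.05 all had an adjusted p of 0.196. The median log2 FC of the receptors was -0.96, beside 0.10 over all tested probes. The arrays did not overlap for 4 receptors (Adora1, Adora2b, Adora3, and P2ry4), and for 9.53% of all probes. This comparison and the previous one share the I/R arrays. The methods' t-test called Adora1, Adora3, and P2ry4 and lost Adora2b, P2ry6, and P2ry14, with 1.97% of all probes called. With no scaling between arrays, Adora1 and P2ry4 lost their calls (log2 FC 0.39 and 0.50).

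Between DHI and Sham, 0 of the 10 receptors were called by limma, at the unadjusted p or the adjusted one, against 3.58% of all probes at the unadjusted p (2.52% higher and 1.06% lower). The smallest unadjusted p was that of P2ry2 (0.0571, limma adjusted p = 0.709), and the median log2 FC was 0.56, beside 0.02 over all tested probes. P2ry2 was the only receptor whose DHI and Sham arrays did not overlap, as 18.6% of all probes did not. Its groups nearly touched, with DHI 2 at -4.095 and Sham 3 at -4.100.

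**Figure D2:**
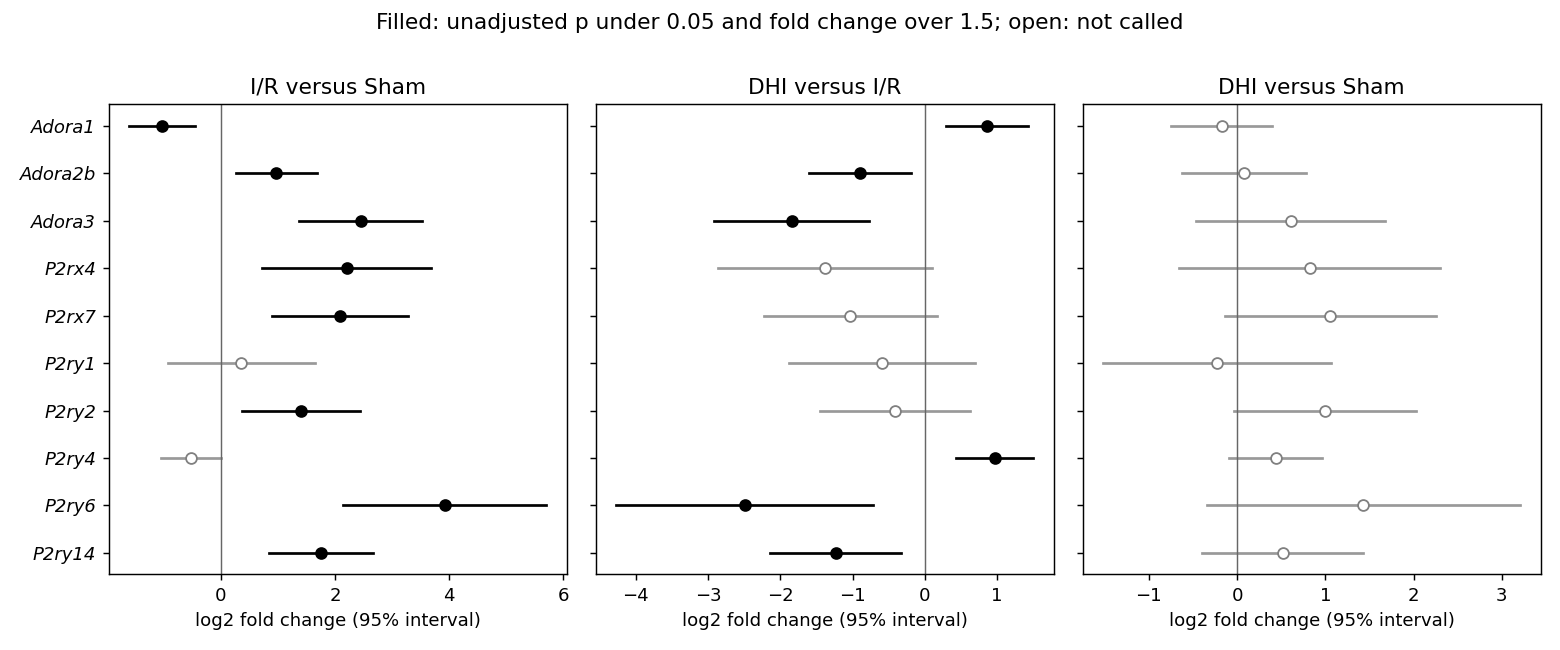
Log2 FC (x axis) of the 10 receptors with its 95% interval from limma in each of the 3 comparisons; filled points are called (unadjusted p under 0.05 and FC over 1.5). There are 8 filled points in I/R versus Sham, 6 in DHI versus I/R, and 0 in DHI versus Sham.

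Adora1, the gene of the A1 adenosine receptor, which couples to inhibitory G proteins and is abundant on neurons, was the only receptor called lower in I/R than in Sham. Its levels were 1.102, 1.37, and 1.39 in the 3 Sham arrays, 0.60, 0.10, and 0.08 in I/R, and 0.64, 1.37, and 1.33 in DHI. All I/R arrays lay below all Sham and DHI arrays, and DHI 1 lay close to the highest I/R array. The log2 FC was -1.03 in I/R versus Sham (SE 0.25, limma adjusted p = 0.0396) and 0.85 in DHI versus I/R (SE 0.25, limma adjusted p = 0.196). The second probe of the gene, which is dimmer (chr13:47160301-47160360), was called in the same directions, with log2 FCs of -0.96 (SE 0.23) and 0.63 (SE 0.23). Between DHI and Sham the difference was -0.17, with a 95% interval from -0.74 to 0.40.

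Adora2b encodes the A2b receptor, which raises cAMP and responds to the high adenosine levels of injured tissue. Its levels were -2.11, -1.99, and -1.93 in Sham, -0.78, -1.17, and -1.15 in I/R, and -1.19, -2.31, and -2.31 in DHI. I/R lay above both other groups, with DHI 1 just under the lowest I/R array and the other DHI arrays below all Sham arrays. The log2 FC was 0.97 in I/R versus Sham (SE 0.31, limma adjusted p = 0.045) and -0.90 in DHI versus I/R (SE 0.31, limma adjusted p = 0.196). The DHI versus I/R call was lost without I/R 1, DHI 2, or DHI 3 (log2 FC -0.77, -0.71, and -0.71).

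Adora3, the gene of the A3 receptor, which in rat is known from mast cells and other immune cells, showed the largest rise of the adenosine receptors. It was measured at -2.46, -2.56, and -2.73 in Sham, 0.32, 0.38, and -1.09 in I/R, and -1.21, -2.63, and -2.09 in DHI. I/R 3 lay well below the other I/R arrays and just above DHI 1, so that I/R stayed apart from both other groups. The log2 FC was 2.45 in I/R versus Sham (SE 0.47, limma adjusted p = 0.0396), a rise of 5.47-fold, and -1.84 in DHI versus I/R (SE 0.47, limma adjusted p = 0.196), a 3.59-fold lower level. Of the 5 mast cell markers, 2 were tested (Tpsab1 and Cpa3) and 0 were called by limma in any comparison, also at the unadjusted p. Their summed linear level over all 5 markers was 0.0219 to 0.0277 in Sham, 0.0155 to 0.0275 in I/R, and 0.0195 to 0.0311 in DHI, in units of the 75th percentile, and Fcer1a was at background throughout.

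P2rx4 and P2rx7 encode ATP-gated cation channels that microglia carry, of which P2rx7 opens at high ATP and is known for driving the inflammasome. Levels of P2rx4 were -3.96, -4.15, and -4.10 in Sham, -1.68, -1.66, and -2.26 in I/R, and -1.61, -4.58, and -3.54 in DHI. The DHI arrays covered the whole range, with DHI 1 above all I/R arrays and DHI 2 below all Sham arrays. P2rx4 rose by 4.61-fold in I/R versus Sham (log2 FC 2.21, SE 0.64, limma adjusted p = 0.0414). Its log2 FC between DHI and I/R was -1.38 (95% interval -2.86 to 0.10, limma adjusted p = 0.204), without DHI 1 it was -2.20 and called, and without DHI 2 it was -0.72 and not called.

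P2rx7 was dim, with intensities of 8.6 to 82.6 units, and was well above background on 2 of 3 Sham, 3 of 3 I/R, and 2 of 3 DHI arrays. Its levels were -7.57, -7.91, and -8.03 in Sham, -4.99, -5.63, and -6.63 in I/R, and -5.95, -7.72, and -6.68 in DHI. I/R lay above Sham on every array, and DHI overlapped both groups. The probe was tested only because the I/R arrays, where it is high, passed the filter, so the test is not independent of that difference. The log2 FC in I/R versus Sham was 2.09 (SE 0.52, limma adjusted p = 0.0396). With normexp background correction it was 0.54 and not called, so the size of this rise depends on how the background is removed. Its log2 FC between DHI and I/R was -1.03 (95% interval -2.23 to 0.17, limma adjusted p = 0.219), with normexp it was 0.073, and without DHI 1 and without I/R 3 it was -1.45 and -1.47 and called.

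P2ry6, whose product responds to UDP and is known for starting phagocytosis by microglia, had the widest range of the 10 receptors. Its levels were -1.24, -1.57, and -1.46 in Sham, 3.26, 2.71, and 1.52 in I/R, and 1.84, -1.26, and -0.57 in DHI. The Sham arrays lay within a narrow band, while DHI 1 lay between I/R 3 and I/R 2, DHI 2 within the Sham range, and DHI 3 above it. P2ry6 rose by 15.1-fold in I/R versus Sham (log2 FC 3.92, SE 0.77, limma adjusted p = 0.0396) and lay 5.62-fold lower in the DHI arrays than in I/R (log2 FC -2.49, SE 0.77, limma adjusted p = 0.196). That log2 FC was -3.41 without DHI 1 and -1.86 without DHI 2. Against Sham, its log2 FC in DHI was 1.43, with a 95% interval from -0.34 to 3.20.

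P2ry14, whose product responds to UDP-glucose and other UDP sugars, was at -5.23, -4.83, and -5.09 in Sham, -2.64, -3.16, and -4.08 in I/R, and -3.92, -4.85, and -4.82 in DHI. DHI 1 lay just above I/R 3, and the other DHI arrays lay at the upper edge of the Sham range. The log2 FC was 1.75 in I/R versus Sham (SE 0.39, limma adjusted p = 0.0396), a rise of 3.37-fold, and -1.24 in DHI versus I/R (SE 0.39, limma adjusted p = 0.196).

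P2ry2, whose product responds to ATP and UTP and whose probe lies beside that of P2ry6 in the genome, rose in I/R and was not called in DHI versus I/R. Its levels were -4.57, -4.69, and -4.10 in Sham, -2.50, -2.71, and -3.93 in I/R, and -2.78, -4.10, and -3.50 in DHI, where DHI and I/R overlapped. It rose by 2.65-fold in I/R versus Sham (log2 FC 1.41, SE 0.45, limma adjusted p = 0.0463), a call that was lost without I/R 1 (log2 FC 1.13). Its log2 FC between DHI and I/R was -0.41 (95% interval -1.45 to 0.62, limma adjusted p = 0.515), and in DHI versus Sham it was 0.99 (95% interval -0.04 to 2.03, limma adjusted p = 0.709). Whether P2ry2 and P2ry6 differ in their response was not tested.

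P2ry1, the ADP receptor of platelets, neurons, and astrocytes, was called in no comparison. Its levels were -3.45, -5.18, and -4.41 in Sham, -3.90, -3.84, and -4.21 in I/R, and -4.13, -5.72, and -3.88 in DHI. The Sham and DHI arrays spread more widely than the I/R arrays and overlapped them. The log2 FC was 0.36 in I/R versus Sham (95% interval -0.92 to 1.65) and -0.59 in DHI versus I/R (95% interval -1.88 to 0.70), so both signs lie within each interval.

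P2ry4, whose product responds to UTP, was also dim, with intensities of 11.3 to 20.2 units. It was well above background on 3 of 3 Sham, 0 of 3 I/R, and 3 of 3 DHI arrays. Levels were -7.23, -7.46, and -7.22 in Sham, -7.87, -7.72, and -7.91 in I/R, and -7.37, -6.49, and -6.74 in DHI. DHI was an estimated 1.95-fold higher than I/R (log2 FC 0.96, SE 0.23, limma unadjusted p = 0.00299, adjusted p = 0.196). This is set against I/R arrays that were not well above background, and without scaling the log2 FC was 0.50. Sham was an estimated 1.44-fold higher than I/R on the same basis and was not called (limma adjusted p = 0.0997). The log2 FC in I/R versus Sham was -0.53 (SE 0.23) and ran from -0.65 to -0.18 over the settings tried. It was called with quantile normalization (log2 FC -0.65).

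The DHI arrays spread widely in these genes. On a scale where the Sham mean of a gene is 0 and its I/R mean is 1, DHI 1 lay between 0.56 and 1.19 in the 8 receptors called in I/R versus Sham, with a median of 0.84. DHI 2 lay between -0.31 and 0.26 (median 0.01) and DHI 3 between -0.31 and 0.68 (median 0.21). DHI 1 was the DHI array nearest to I/R in 8 of 8 receptors, and I/R 3 was the I/R array nearest to Sham in 6 of 8. These positions are a description, with no test, since the 8 receptors were taken for their difference between the groups that set the scale.

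**Figure D3:**
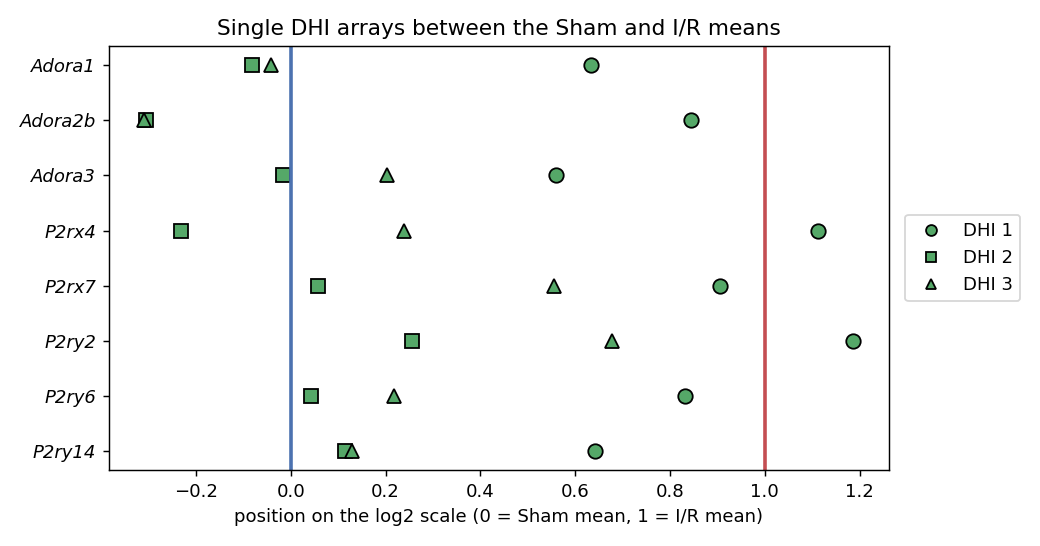
Position of each DHI array (points) between the Sham mean (0) and the I/R mean (1) on the log2 scale (x axis) for the 8 receptors called in I/R versus Sham. DHI 1 lies at 0.56 or above in every receptor, and DHI 2 at 0.26 or below.

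Leaving out single arrays moved the counts. Without DHI 1, 8 receptors were called in DHI versus I/R (P2rx4 and P2rx7 joined) and 7 had an adjusted p under 0.05 in limma's test, but 45.2% of all probes were then called. Without DHI 2 or without DHI 3, 5 receptors were called and 0 by limma's adjusted p, beside 3.95% and 4.74% of all probes. In I/R versus Sham, leaving out 1 array left 7 or 8 receptors called at the unadjusted p. The 8 calls by the adjusted p fell to 0 when DHI 3, any single Sham array, I/R 2, or I/R 1 was left out, where the lowest adjusted p of a receptor was 0.0576 to 0.133. In each of these fits, 0 or 1 of all 23759 probes were called by the adjusted p, beside 7467 with all arrays. The fall was therefore not particular to the receptors.

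Marker genes of some cell types, though not of all, also differed between the groups. In bulk tissue fewer cells of a type and less RNA per cell cannot be told apart. Of 6 markers of microglia and macrophages, 5 rose in I/R versus Sham (Aif1, Csf1r, Itgam, Cd68, and Tmem119) and Cx3cr1 had a log2 FC of -0.998 and was not called. Aif1, Csf1r, Cd68, and Tmem119 were lower in DHI than in I/R. Their summed linear level, in units of the 75th percentile, was 7.25 to 8.59 in Sham and 33.4 to 97.0 in I/R. In DHI it was 50.8 on DHI 1, 10.5 on DHI 2, and 10.2 on DHI 3. Each of the 6 was detected on every array.

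Of 6 neuronal markers, which match the brain label of the samples, all 6 were lower in I/R than in Sham and 4 (Rbfox3, Snap25, Syt1, and Slc17a7) were higher in DHI than in I/R. Their sum was 45.3 to 56.0 in Sham, 3.59 to 20.7 in I/R, and 12.3 to 45.7 in DHI, with DHI 1 the lowest of its group. T and NK cell markers were dim, at 0.0323 to 0.0623 in Sham, 0.324 to 0.653 in I/R, and 0.0499 to 0.492 in DHI, and Cd8a and Cd2 were not well above background on any Sham array. Of 4 tested, 3 rose in I/R (Cd3g, Cd8a, and Nkg7). Of 6 astrocyte markers, 3 rose (Gfap, Aqp4, and Aldh1l1) and Slc1a2 fell, and they summed to 38.7 to 42.0, 58.5 to 76.8, and 39.7 to 62.5 in the same order. Choroid plexus markers differed between arrays of 1 group, with sums of 93.1 on I/R 3, 136 on DHI 1, and 74.1 on DHI 3 against 0.345 to 7.43 on the other arrays. Of 3 red blood cell markers (Hba-a2, Hbb, and Alas2), all 3 were lower in I/R than in Sham, with a median log2 FC of -2.04, and all 3 were higher in the DHI arrays than in I/R, with a median of 2.67. Their sums were 3.75 to 29.7 in Sham, 2.27 to 3.34 in I/R, and 7.33 to 38.9 in DHI, again with DHI 1 the nearest of its group to I/R. Of 5 endothelial markers, 2 rose in I/R (Pecam1 and Tek), and of 5 oligodendrocyte markers 0 were called by limma in I/R versus Sham, also at the unadjusted p, and 1 (Mobp) was higher in DHI versus I/R. The part of cell composition in the receptor values was not tested.

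The other genes of the pathway were followed in a list of 40 genes, of which 35 were tested. In I/R versus Sham, 20 rose and 4 fell, 17 and 2 of them with an adjusted p under 0.05, and the median log2 FC was 1.08. In DHI versus I/R, 15 were lower and 1 was higher, with a median of -0.56 and 0 by limma's adjusted p. In DHI versus Sham, 1 was called (Enpp2, higher). The shares of all probes called in these comparisons are those given above, 43.1%, 21.9%, and 3.58%. P2rx1, P2rx5, P2ry10, Entpd8, and Slc28a3 were too dim to be tested.

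**Figure D4:**
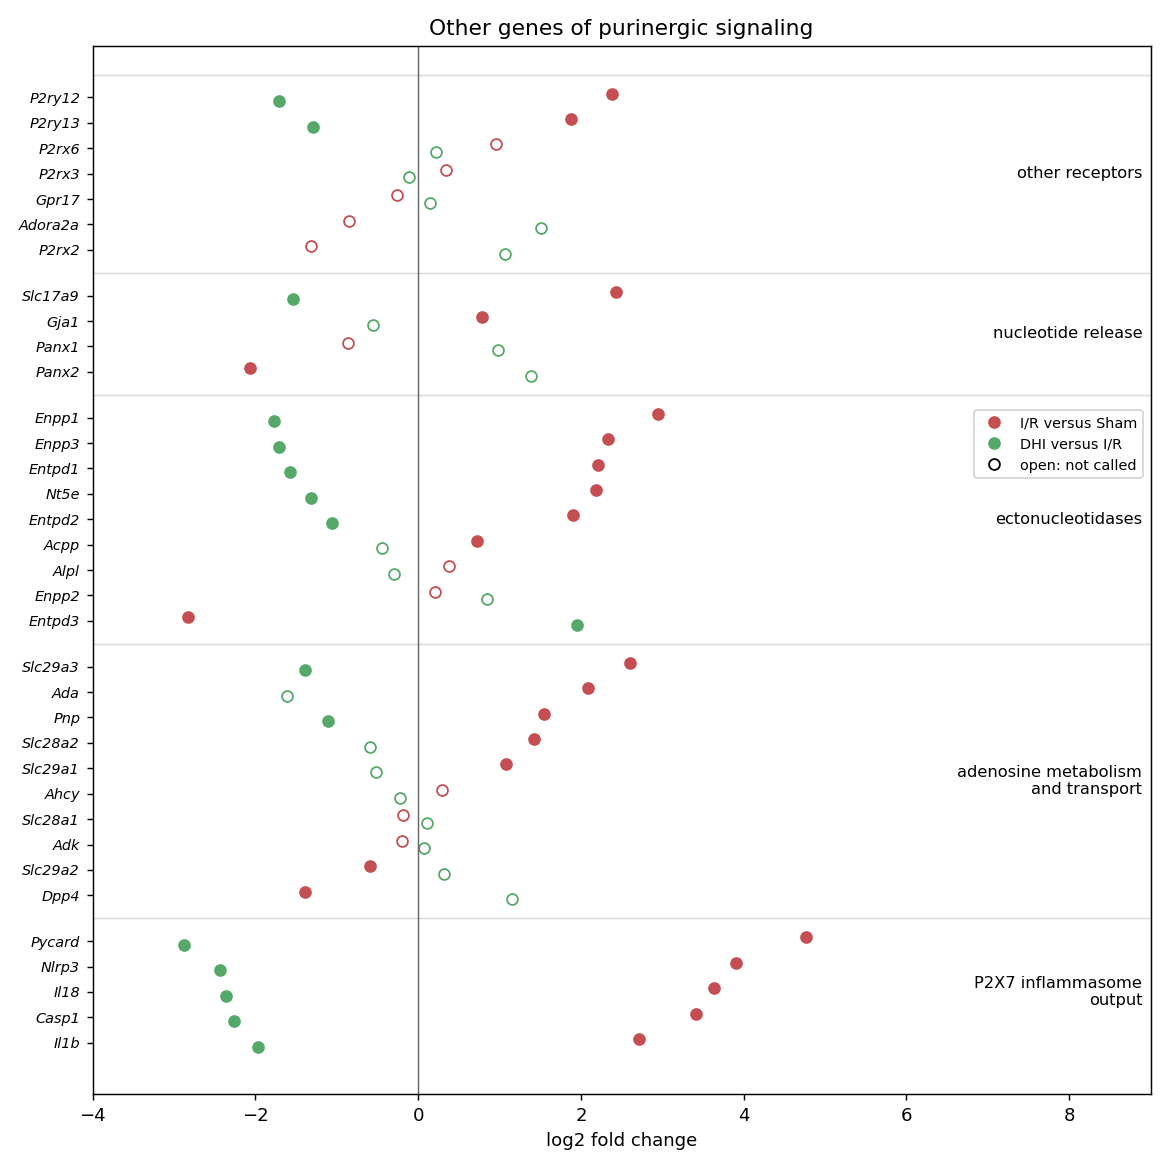
Log2 FC (x axis) of the 35 other purinergic genes that were tested, grouped by role (y axis), in I/R versus Sham (red) and DHI versus I/R (green); filled points are called at an unadjusted p under 0.05 and FC over 1.5. Entpd3 (-2.83 and 1.96) and Panx2 (-2.07 and 1.39, the second not called) run against the other release and nucleotidase genes that were called.

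Among the 7 other receptors tested, P2ry12 and P2ry13, ADP receptors that in brain are known from microglia, were the 2 that rose in I/R. P2ry12 was at 1.00, 1.11, and 0.61 in Sham, 3.94, 3.45, and 2.47 in I/R, and 3.00, 0.61, and 1.11 in DHI. Its log2 FC was 2.38 in I/R versus Sham (limma adjusted p = 0.0396) and -1.71 in DHI versus I/R (limma adjusted p = 0.196). P2ry13, at 1.88 and -1.29, was called in both comparisons too. Adora2a, the A2a receptor gene that is rich in striatal neurons, was not called and stood out by its spread within groups. It was at 0.58 on Sham 1 and 0.73 on DHI 3, and at -4.43 to -2.38 on the other 7 arrays.

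Genes of nucleotide release split. Slc17a9, the vesicular nucleotide transporter, rose in I/R (log2 FC 2.43) and was lower in DHI than in I/R (-1.54), while Gja1, the connexin 43 gene of astrocytes, rose by 0.79. Panx2, a pannexin of neurons, fell (log2 FC -2.07), and Panx1, a channel for ATP, had a log2 FC of -0.87 and was not called.

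Of 9 ectonucleotidases tested, 6 rose and 1 fell in I/R. Entpd1 (CD39), which degrades ATP and ADP to AMP, was at -5.55, -5.79, and -5.56 in Sham, -2.91, -3.23, and -4.14 in I/R, and -3.76, -5.72, and -5.54 in DHI. Nt5e (CD73), which makes adenosine from AMP, was at -3.65, -4.31, and -3.60 in Sham, -0.79, -1.98, and -2.26 in I/R, and -1.84, -3.92, and -3.23 in DHI. Both were higher on every I/R array than on any Sham array, and on DHI 1 than on the other DHI arrays. The log2 FCs in I/R versus Sham were 2.21 for Entpd1, 1.91 for Entpd2, 2.95 for Enpp1, 2.33 for Enpp3, 2.18 for Nt5e, and 0.73 for Acpp. Entpd1, Entpd2, Enpp1, Enpp3, and Nt5e were lower in DHI than in I/R, by log2 FCs of -1.77 to -1.06. Entpd3, a nucleotidase of neurons, went the other way, with log2 FCs of -2.83 and 1.96.

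Of 10 genes for adenosine metabolism and transport, 5 rose and 2 fell in I/R. Ada, which deaminates adenosine, had a log2 FC of 2.09 (limma adjusted p = 0.063), and Pnp, which acts in the next step on inosine, had 1.55 (limma adjusted p = 0.0396). The nucleoside transporters Slc29a3, Slc28a2, and Slc29a1 rose by 2.61, 1.42, and 1.08, while Slc29a2 (-0.59) and Dpp4 (-1.39), a peptidase that binds adenosine deaminase, fell. Adk, the kinase that clears adenosine inside cells, had a log2 FC of -0.20 and was not called. In DHI versus I/R, Pnp (-1.10) and Slc29a3 (-1.39) were lower and no other gene of this list was called.

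The 5 genes listed for the inflammasome all rose in I/R versus Sham. These are transcript levels, and whether P2rx7 had a part in them was not tested. The log2 FCs were 4.77 for Pycard (ASC), 3.91 for Nlrp3, 3.64 for Il18, 3.42 for Casp1, and 2.72 for Il1b. All 5 were lower in DHI than in I/R, by log2 FCs of -2.87 to -1.97 (limma adjusted p = 0.196 for each), and DHI 1 was again the highest DHI array, with Casp1 at -0.90 against -3.89 and -3.47.

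The genes whose pattern over the 9 arrays was most like that of each receptor were found by the mean absolute difference of centered levels, over 13682 genes. For P2ry6 they were Hmha1 (mean difference 0.0472), Cnr2 (0.0894), and Lrch4 (0.0913), against a median of 1.81 over all genes. For Adora1 they were Tubb4a (0.0967), Olr1607, and Plcl1, for Adora2b Ppap2a (0.0866), Cd81, and Slc38a9, and for Adora3 Snx20 (0.157), Vrk2, and Aurka. For P2rx4 they were Itgb7 (0.103), Slc12a7, and Echdc3, for P2rx7 Olr1343 (0.141), Ikzf1, and Tk1, and for P2ry14 Calcrl (0.110), Cebpg, and Mapkapk3. P2ry2 was nearest to Gltp (0.106), Lima1, and Birc7, and P2ry4 to Ttll13 (0.0561), C8b, and Chm. P2ry1 had the least close neighbors, Myog (0.232), Zfp521, and Ltb. No receptor was among the 3 nearest genes of another, and the arrays that share a group and a slide are common to all these genes.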

How the data were processed

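The authors deposited the scanner output of Agilent Feature Extraction 10.7.1.1 for every array, in which spot intensity is linear and background-corrected but unscaled. A table of log2 values per probe was deposited as well, with the same distribution in every column. The normalization of that table is not given in the sources used here. From the intensity columns, the level of a probe was log2 of the processed signal after subtracting log2 of the 75th percentile. Control and outlier spots were dropped, and replicate spots were averaged. Probes that some group had well above background on its 3 arrays were tested (23759).

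One model over 9 arrays was fitted in R 4.3.3 with limma 3.58.1 (lmFit and eBayes, 6 residual degrees of freedom), with the data.table package (1.17.8) for reading, and was tested on simulated data. Groups and replicate numbers came from the labels. Calls used an unadjusted p under 0.05 and FC over 1.5, and 95% intervals came from the same model. The members and lists were chosen with earlier results of these data known. The genes named are the 10 members, the pathway genes called in I/R versus Sham or DHI versus I/R (others by counts, with Adora2a, Panx1, Adk, and Enpp2 named after their values were seen), and 3 nearest genes per member. Marker lists of 9 cell types were examined. The accessions of 9 of the 10 members and 38 of the 40 pathway genes gave the same symbol in the table of RefSeq genes, and the symbols of the files were kept. The alternatives were quantile normalization, no scaling, normexp (offset 50), the authors' series table, 2 filters, a model of 2 groups, weights per array, a block for the replicate number, the methods' t-test, the adjusted p, the mean over all probes of a gene, and leaving out each array. The count of value columns that map to no sample was 0.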

Additional observations from a re-analysis of the deposited data

How the results depend on the processing

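The counts of called receptors and of other purinergic genes in I/R versus Sham stayed within 1.5 times their values (8 and 24) under every setting tried. Those of DHI versus I/R (6 and 16) and DHI versus Sham (0 and 1) did not. In DHI versus I/R, the methods' t-test called 3 receptors (Adora1, Adora3, and P2ry4) and 0 other genes at the thresholds of the study, and the adjusted p called 0 and 0. Of all probes, 1.97% and 0.00421% were called in these settings. For the other genes, a model of only the 2 groups called 6 and array weights, whose estimate did not converge, called 28. These settings called 9.05% and 51.5% of all probes. In DHI versus Sham, the receptors numbered 2 with normexp, 1 with the 2 groups only, and 5 with array weights, and the other genes 3, 0, and 13 in the same order, 2 without the filter, and 0 with quantile normalization, no scaling, the series table, the t-test, or the adjusted p. Of all probes, 5.65%, 3.81%, 17.6%, and 4.63% were called in the first of these settings, up to that without the filter. In the rest, 3.3%, 7.1%, 3.31%, 1.89%, and 0% were called, in the order given.

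Leaving out 1 array gave 7 to 8 receptors and 19 to 25 other genes in I/R versus Sham, 5 to 8 and 2 to 22 in DHI versus I/R, and 0 to 4 and 0 to 9 in DHI versus Sham. The share of all probes called moved too, from 31.7% to 48.6%, 3.95% to 45.2%, and 1.45% to 10.6% in these comparisons. The other genes in DHI versus I/R fell to 2 without I/R 1 or DHI 3, 3 without DHI 2, and 4 without I/R 2. In the same order, 5.81%, 4.74%, 3.95%, and 6.98% of all probes were then called. In DHI versus Sham the receptors numbered 4 without DHI 2, 2 without I/R 3, and 1 without DHI 1, and the other genes 9 without DHI 2 and 0 without Sham 2, I/R 1, I/R 2, or I/R 3. Of all probes, 10.6% were called there without DHI 2, 4.58% without I/R 3, and 3.5% without DHI 1. Without Sham 2, I/R 1, or I/R 2, the share was 1.45%, 3.54%, or 2.96%. The cause was not tested.

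Single receptors changed sign in these cases. In DHI versus Sham, the log2 FC of Adora2b was -0.19 with no scaling, -0.33 with array weights, and -0.30 without DHI 1. That of P2ry1 was 0.10 with normexp, 0.70 with array weights, 0.22 without Sham 1, and 0.34 without DHI 2, and that of Adora1 was 0.064 without DHI 1, and over the arrays left out in turn these comparisons reached 0.26 for Adora2b and -0.64 for P2ry1. Between DHI and I/R, P2rx7 was at 0.073 with normexp. In I/R versus Sham, P2ry1 was at -0.054 without Sham 2 and reached 0.81 without Sham 1. Without scaling, Adora1 (0.39) and P2ry4 (0.50) lost their calls in DHI versus I/R and P2rx4 (-1.84) and P2rx7 (-1.49) gained one. That setting moved the median of all probes in DHI versus I/R from 0.10 to -0.36. Of the probes called there, 52.2% were higher in the main setting, 4.80% without scaling, 45.8% with quantile normalization, and 63.7% with normexp. In I/R versus Sham 48.4% of calls were higher, and 61.0% without scaling. Between DHI and Sham 70.5% were higher, and 37.5% with quantile normalization, 5.21% without scaling, and 92.9% with normexp. By the adjusted p, the 8 receptors of I/R versus Sham became 6 with quantile normalization, 5 without the filter, and 0 without scaling.

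The values did not settle whether the replicate numbers pair the arrays. The deviations of arrays with the same number correlated at -0.34 to 0.48, and 5 of 9 arrays correlated best with their own number. With the replicate number as a block, 2 receptors (P2rx7 and P2ry6) and 3 other genes were called in DHI versus Sham, and P2rx7 gained a call in DHI versus I/R (limma unadjusted p = 0.0425), which made 7 receptors. Signal over background limits P2rx7 and P2ry4, the dimmest members.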
